A study of Danio rerio with 9 samples.

Results

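Transcripts of a metallothionein gene and of zinc transporter genes were measured by RNA sequencing in 9 libraries of zebrafish (Danio rerio) intestine. The set was a list of 8 gene names, mt2, slc30a1a, slc30a2, slc30a5, slc30a7, slc39a4, slc39a5 and slc39a14, matched by name to the 26983 rows of the deposited tables. A row was found for 7 of the 8, and slc30a2 was not analysed here. All 7 passed the filter on low counts, so that no member was lost to it. The study is titled as work on soybean meal enteritis, a diet-induced inflammation of the fish gut, and on β,β-dimethylacryloyl shikonin, a shikonin ester made by plants. The libraries carry the codes D3, SBM and FM, with 3 libraries each. What the codes stand for is not spelled out, and no strain, age, sex, dose or duration is named. Whether a library is 1 fish or a pool is not stated either, so that p-values measure the spread between these libraries, which may be technical.

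Cells hold zinc in balance with 2 families of membrane transporters and a buffer. The slc39a (ZIP) proteins move zinc into the cytosol, from outside or from organelles, and the slc30a (ZnT) proteins move it out of the cytosol, across the plasma membrane or into vesicles and the Golgi. Metallothioneins are small, cysteine-rich proteins that bind zinc and copper, and in vertebrates their genes are switched on by zinc through a metal-sensing transcription factor encoded by mtf1. In the mammalian gut, absorptive enterocytes take up dietary zinc at the brush border and release it at their base.

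Total counts were between 34436497 and 36203230 per library, so that counting error was small for all members but slc39a14. Levels are given as CPM (counts per 1000000 counts of the library, with TMM library factors) with mean ± SD over 3 libraries, and differences as log2 fold changes ± SE from edgeR. Markers of the intestinal epithelium were present in every library, with 12 of 12 enterocyte markers above 0 throughout and a summed level of 9087 to 17033 CPM in D3, 9396 to 20406 in SBM and 22037 to 28681 in FM. Markers of neighbouring organs varied within groups, and some also differed between them. The 15 of 15 oocyte markers found summed to 292 to 4407 CPM in D3, 188 to 4252 in SBM and 55.6 to 159 in FM, with the high values in D3 library 3 and SBM library 1, where the egg coat gene zp3 had 448 and 570 CPM. These 2 libraries of different groups also deviated alike from their group means (r = 0.708 across genes, which are not independent replicates), the highest value of any pair of libraries from 2 groups. Whether their labels are right was not tested. The 13 of 15 hepatocyte markers found summed to 1054 to 27074 CPM in D3, 394 to 37543 in SBM and 508 to 2888 in FM, with the high values in D3 libraries 1 and 2 and SBM library 2, where the liver fatty acid binding gene fabp10a had 1757, 2054 and 3915 CPM. No marker of these 3 lists was at 0 in any library. Every D3 and SBM library lay above every FM library for the oocyte sum. Exocrine pancreas markers summed to 66977 to 107296 CPM in D3, 82969 to 164981 in SBM and 133868 to 179701 in FM. Every D3 library thus lay below every FM library for them, and SBM overlapped both. The part of these differences in the comparisons with FM was not tested.

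No member passed the edgeR quasi-likelihood test at a Benjamini-Hochberg adjusted p of 0.05 over the 19450 genes tested, in any of the 3 comparisons, and the share of all genes called was 0% in each. The gene slc30a1a was lower in all 6 D3 and SBM libraries than in the lowest FM library, and mt2 had lower values in D3 than in SBM. In D3 against FM, 1 of 7 members had an unadjusted p under 0.05 and a lower value, where 7.14% of all tested genes did, and 0 of 7 a higher one, where 8.05% did. The groups did not overlap in CPM for 1 member lower in D3 (13.6% of all genes) and for 0 higher (12.8%). Between D3 and SBM, 1 of 7 had an unadjusted p under 0.05 and a lower value (1.32% of all genes), and 0 a higher one (0.746%). The groups did not overlap for 1 member lower in D3 (2.56%) and 0 higher (2%). In SBM against FM, 1 of 7 had an unadjusted p under 0.05 and a lower value (3.41% of all genes), and 0 a higher one (5.53%). The groups did not overlap for 2 members lower in SBM (10.3%) and 0 higher (9.56%). Over all genes, 2954, 402 and 1738 had an unadjusted p under 0.05 in D3 against FM, D3 against SBM and SBM against FM, and DESeq2 called 909, 5 and 113. DESeq2 called 1 member, slc30a1a in D3 against FM, and limma-voom called 0 members and 0 genes. The median log2 fold change of the 7 members was −0.37 in D3 against FM, −0.03 for D3 against SBM and −0.26 in SBM against FM, beside 0.04, 0.03 and −0.01 over all tested genes.

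**Figure D1:**
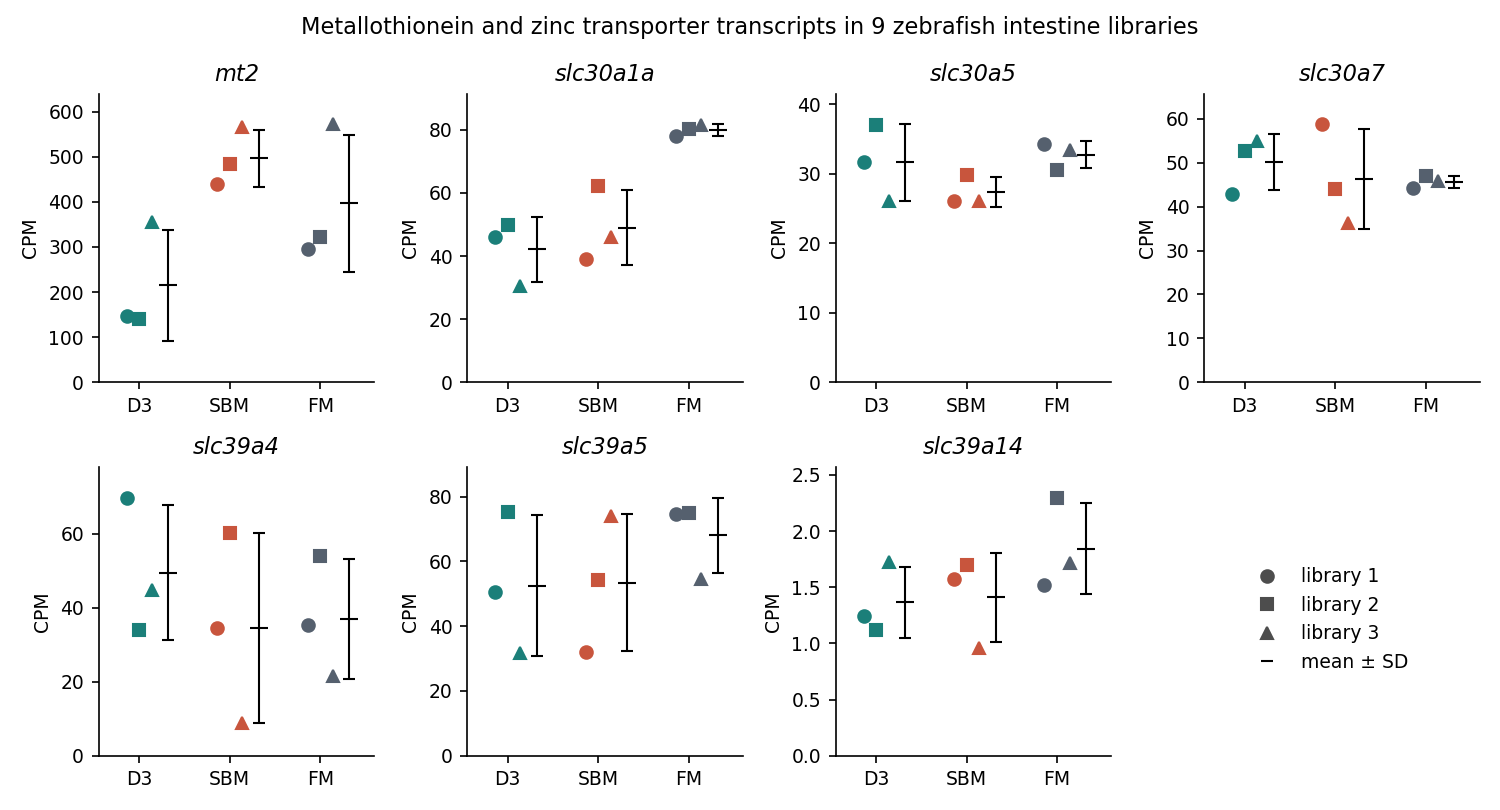
Level of each of the 7 genes in CPM (linear axis from 0) in the D3, SBM and FM libraries, with 1 marker shape per library number and the mean ± SD beside each group. All 3 FM libraries of slc30a1a lie between 78.0 and 81.6 CPM, above every D3 and SBM library, while the groups of slc39a4 and slc39a5 overlap widely.

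The metallothionein gene mt2 was the most abundant of the set. It had 147, 141 and 356 CPM in D3 libraries 1 to 3. The SBM libraries had 440, 484 and 565 CPM. The FM libraries had 296, 321 and 572 CPM. Every D3 library thus lay below every SBM library, 2 of the 3 D3 libraries also lay below every FM library, and FM spanned much of the range of the other groups. The group means were 215 ± 123 CPM in D3, 497 ± 63.3 in SBM and 396 ± 152 in FM (SD, n = 3 each).

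For D3 against SBM, mt2 had a log2 fold change of −1.21 ± 0.42 (edgeR unadjusted p = 0.0191, adjusted p = 1). The separation of these 2 groups was narrow and depended on the scaling. In FPKM, which divides by the plain library total, mt2 had 272, 261 and 746 in D3 and 929, 742 and 1232 in SBM, so that D3 library 3 lay just above SBM library 2. D3 library 3 is one of the libraries high in oocyte markers, and without it the log2 fold change was −1.80 ± 0.34 (edgeR adjusted p = 0.611), and −1.89 ± 0.35 without SBM library 1 as well. Without D3 libraries 1 and 2 and SBM library 2, which were high in hepatocyte markers, it was −0.57. The only D3 library left there was library 3, the D3 library with the most mt2, and SBM library 1 was among the SBM libraries left. Hepatocyte markers moved with the low mt2 values in D3 but not in SBM: SBM library 2 had the highest hepatocyte sum of all 9 libraries and 484 CPM of mt2. Their part in the D3 values was not tested.

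In D3 against FM, mt2 had a log2 fold change of −0.88 ± 0.42 (edgeR adjusted p = 0.340). Its size rested on single libraries and on the scaling, with −1.48 ± 0.33 without D3 library 3, −0.54 ± 0.43 without FM library 3, the FM library with the most mt2, and −0.57 ± 0.45 with library size alone. Without D3 libraries 1 and 2 and SBM library 2, with D3 library 3 as the only D3 library left, it was −0.23. In SBM against FM mt2 had 0.32 ± 0.41 (edgeR adjusted p = 0.731). That value was 0.68 without FM library 3, 0.14 without FM library 1, 0.18 without FM library 2, 0.20 without SBM library 3 and 0.61 with library size alone. Neither difference passed the test against the spread between libraries. The table holds a second metallothionein gene, mtbl, at a much lower level. It had 9.08, 7.89 and 8.92 CPM in D3. SBM had 5.64, 14.5 and 17.7 CPM, and FM had 20.0, 16.3 and 23.0 CPM. Each D3 library lay below each FM library for mtbl, and its log2 fold change in D3 against FM was −1.20 ± 0.38 (edgeR unadjusted p = 0.0128, adjusted p = 0.320). How reads shared between the 2 metallothionein genes were counted is not given in the sources used here. Transcripts of mtf1 were few, with a mean of 1.92 ± 0.0595 CPM in D3, 1.89 ± 0.208 in SBM and 1.72 ± 0.368 in FM (SD, n = 3 each).

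The exporter gene slc30a1a showed the clearest separation of groups. In mammals its product sits in the plasma membrane, at the base of enterocytes, carries zinc out of the cell and is, like metallothionein, induced by zinc. The D3 libraries had 46.1, 49.8 and 30.5 CPM. The SBM libraries had 38.9, 62.0 and 46.1 CPM. The FM libraries had 78.0, 80.2 and 81.6 CPM. The FM libraries were nearly alike, and the highest of the other 6, SBM library 2, reached 62.0 CPM. The means were 42.1 ± 10.2 CPM in D3, 49.0 ± 11.8 in SBM and 79.9 ± 1.81 in FM (SD, n = 3 each).

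In D3 against FM, slc30a1a had a log2 fold change of −0.92 ± 0.25, a level 0.527 times that of FM (edgeR unadjusted p = 0.00505, adjusted p = 0.320). DESeq2 gave −0.88 ± 0.27 and called it (adjusted p = 0.0355), and the adjusted p ran from 0.0355 to 0.588 over the 20 alternatives. In SBM against FM it had −0.71 ± 0.25, a level 0.613 times that of FM (edgeR unadjusted p = 0.0194, adjusted p = 0.541, and 0.0906 to 1.00 over the alternatives). The 2 comparisons share the FM libraries. Between D3 and SBM the difference was −0.22 ± 0.24 (edgeR adjusted p = 1), and the groups overlapped. The separation from FM held in FPKM too, with 15.3, 16.6 and 11.5 in D3, 14.7, 17.1 and 18.0 in SBM and 22.3, 23.9 and 22.8 in FM. Without the 2 libraries high in oocyte markers the log2 fold change was −0.74 ± 0.17 in D3 against FM and −0.54 ± 0.17 in SBM against FM (edgeR adjusted p = 0.215 and 0.494).

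The summed level of enterocyte markers moved with slc30a1a, since every D3 and SBM library lay below every FM library for it. Of the single markers, vil1, anpepb, apoa1a, mogat2 and cdh17 were separated in this way too. The other markers overlapped FM, and mtp had 204, 152 and 55.2 CPM in D3 against 107, 101 and 68.1 in FM. Fewer enterocytes and less RNA per enterocyte cannot be told apart in bulk tissue. The exocrine pancreas sum was also lower in every D3 library than in every FM library. The oocyte sum was higher in every D3 and SBM library. Apart from the fit without the libraries high in oocyte markers, their part in the slc30a1a values was not tested. Per 1000 CPM of the 12 enterocyte markers, slc30a1a had 2.71, 3.70 and 3.36 CPM in D3, 3.59, 3.04 and 4.90 in SBM and 3.54, 2.80 and 3.03 in FM. On this scale the 3 groups overlapped, and the mean log2 difference was 0.06 in D3 against FM and 0.28 in SBM against FM (exact two-sided permutation p = 0.8 and 0.2, n = 3 each). The sum is carried mainly by its most abundant members, the apolipoprotein gene apoa1a, the fatty acid binding gene fabp2 and the aminopeptidase gene anpepb. Over the 9 libraries anpepb was among the 3 genes most like slc30a1a in pattern (Pearson r = 0.988). Dividing slc30a1a by a sum that holds such a gene takes away part of any difference by construction. Per 1000 CPM of vil1 alone, which encodes the microvillus protein villin, slc30a1a had 28.0, 40.0 and 38.0 CPM in D3, 37.5, 46.0 and 48.2 in SBM and 46.4, 44.6 and 45.1 in FM. Here each D3 library lay below each FM library, by a mean log2 difference of −0.38 (exact two-sided permutation p = 0.1), while SBM and FM overlapped (−0.05, p = 0.9 by the same exact test). The same scaling was applied to every member. Per 1000 CPM of enterocyte markers, mt2 had 8.65 to 39.2 CPM in D3, 23.7 to 60.1 in SBM and 11.2 to 21.2 in FM. D3 overlapped both, by a mean log2 difference of −1.34 against SBM (exact two-sided permutation p = 0.2) and 0.05 against FM. Each SBM library lay above each FM library for mt2, by 1.39. It also did for slc30a7 (1.01) and slc39a14 (0.60). Each D3 library lay above each FM library for slc30a5 (0.95), slc30a7 (1.14) and slc39a4 (1.47). For each of these the exact two-sided permutation p was 0.1 (n = 3 each). The other members overlapped FM on this scale. Some of these separations depended on the denominator. Per 1000 CPM of vil1, D3 overlapped FM for slc30a5, slc30a7 and slc39a4, and SBM overlapped FM for slc39a14. Each SBM library still lay above each FM library per vil1 for mt2 and slc30a7, by mean log2 differences of 1.06 and 0.67. Per vil1 it also did for slc30a5 (0.42), which had overlapped per enterocyte markers. The marker sum and vil1 were lower in every D3 and SBM library than in every FM library, which by itself raises such ratios. In CPM, the log2 fold changes in SBM against FM were 0.32 ± 0.41 for mt2 and 0.02 ± 0.21 for slc30a7. For slc30a5 and slc39a14 they were −0.26 ± 0.18 and −0.39 ± 0.35. In D3 against FM, slc30a5 had −0.05 ± 0.18, slc30a7 0.14 ± 0.21 and slc39a4 0.42 ± 0.63. The ratios to enterocyte markers and to vil1 were chosen after the values were seen. With 3 libraries against 3 the test cannot give a p under 0.1, and over the 51 such comparisons made the lowest adjusted p was 0.392.

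**Figure D2:**
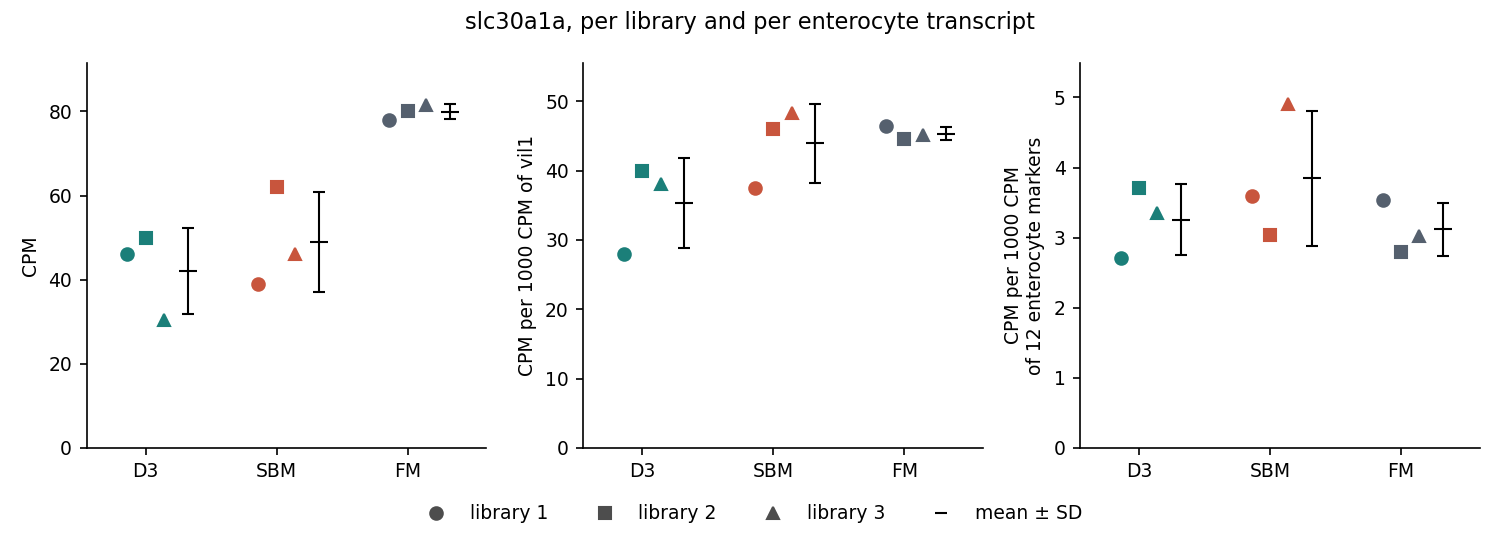
Level of slc30a1a in CPM, in CPM per 1000 CPM of vil1, and in CPM per 1000 CPM of 12 enterocyte markers, in the D3, SBM and FM libraries (linear axes from 0, 1 point per library, mean ± SD beside each group). FM stands above D3 and SBM in CPM (left), D3 alone stays below FM per vil1 (middle), and the groups overlap per enterocyte markers (right).

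Metallothionein and exporter transcripts, both zinc-responsive in mammals, were also set against each other. The ratio of mt2 to slc30a1a counts within a library does not depend on library scaling. It was 3.19, 2.83 and 11.7 in D3, 11.3, 7.81 and 12.3 in SBM and 3.80, 4.01 and 7.01 in FM. Each SBM library lay above each FM library, with a mean log2 difference of 1.11, and the ratio of mt2 to mtbl also did, with 78.1, 33.4 and 31.9 in SBM and 14.8, 19.7 and 24.8 in FM, a difference of 1.18. For both ratios the exact two-sided permutation p was 0.1 (n = 3 each, adjusted p = 0.392), the smallest this design can give. Of the 51 ratio comparisons made, 13 reached it. The 2 ratios share mt2 and are not independent. Taken alone, mt2 had a log2 fold change of 0.32 ± 0.41 in SBM against FM, and its groups overlapped. The denominators slc30a1a and mtbl had −0.71 ± 0.25 and −0.65 ± 0.38, so that lower denominators also raised both ratios. In D3 the ratio of mt2 to slc30a1a was within the SBM range in library 3 and below the lowest FM value in libraries 1 and 2. D3 and SBM overlapped for it (mean log2 difference −1.12, exact two-sided permutation p = 0.3).

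**Figure D3:**
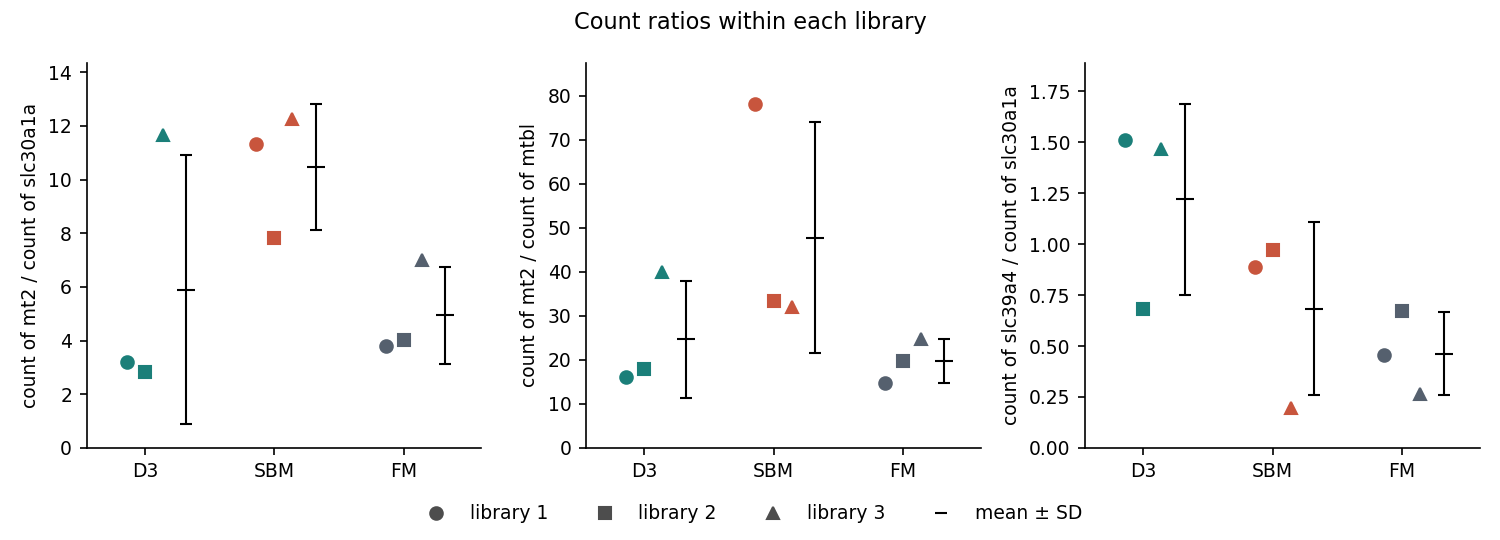
Ratios of counts within each library for mt2 over slc30a1a, mt2 over mtbl and slc39a4 over slc30a1a, in D3, SBM and FM (linear axes from 0, 1 point per library, mean ± SD beside each group). The SBM libraries lie above the FM libraries in the left and middle panels, and the D3 libraries above the FM libraries in the right panel.

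Of the importers, slc39a4 encodes the transporter that brings dietary zinc across the brush border, and its loss causes inherited zinc deficiency in humans. The D3 libraries had 69.6, 33.9 and 44.8 CPM. The SBM libraries had 34.5, 60.2 and 8.93 CPM. The FM libraries had 35.4, 53.9 and 21.4 CPM. This was the most variable of the 7 genes, with a highest library 7.80 times the lowest, and the groups overlapped. Its log2 fold change was 0.42 ± 0.63 in D3 against FM, 0.52 ± 0.63 for D3 against SBM and −0.10 ± 0.62 in SBM against FM (edgeR adjusted p = 0.725, 1 and 0.953). The last of these took either sign when single libraries were left out, with 0.34 without SBM library 3 and −0.78 without SBM library 2. Over all alternatives the log2 fold change of slc39a4 ran from 0.08 to 0.79 in D3 against FM and from 0.07 to 1.20 in D3 against SBM, lowest without D3 library 1 and without SBM library 3. Set against the exporter, the count ratio of slc39a4 to slc30a1a was 1.51, 0.681 and 1.47 in D3, 0.887, 0.970 and 0.194 in SBM and 0.454, 0.672 and 0.262 in FM. Each D3 library lay above each FM library, by 0.681 against 0.672 at the nearest pair (mean log2 difference 1.41, exact two-sided permutation p = 0.1, n = 3 each). The denominator slc30a1a had a log2 fold change of −0.92 ± 0.25 in this comparison, beside 0.42 ± 0.63 for slc39a4.

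The importer gene slc39a5, whose mouse product lies at the base of enterocytes and in pancreatic acinar cells, had 50.7, 75.2 and 31.6 CPM in D3. SBM had 31.9, 54.2 and 74.1 CPM, and FM had 74.6, 74.9 and 54.7 CPM. D3 and SBM both overlapped FM, and the lowest values in both groups were those of the libraries high in oocyte markers, D3 library 3 and SBM library 1. Its log2 fold change was −0.37 ± 0.38 in D3 against FM, −0.03 ± 0.38 for D3 against SBM and −0.35 ± 0.38 in SBM against FM (edgeR adjusted p = 0.603, 1 and 0.687). Without those 2 libraries it was −0.12 in D3 against FM and −0.06 in SBM against FM, and with library size alone −0.13 and −0.07. The 17 of 19 exocrine pancreas markers found summed to 66977 to 107296 CPM in D3, 82969 to 164981 in SBM and 133868 to 179701 in FM, none at 0 in any library. Their part in the slc39a5 values was not tested.

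The importer gene slc39a14, whose product carries manganese and iron beside zinc and is abundant in mammalian liver, had few counts. It had 45, 41 and 72 counts in D3, 65, 52 and 40 in SBM and 46, 76 and 53 in FM. The exact 95% Poisson interval was 28.6 to 54.5 counts at the lowest library and 59.9 to 95.1 at the highest, counting error only. The libraries highest in hepatocyte markers did not stand out, with 45 and 41 counts in D3 libraries 1 and 2 and 52 in SBM library 2. The log2 fold change was −0.43 ± 0.35 in D3 against FM, −0.04 ± 0.35 for D3 against SBM and −0.39 ± 0.35 in SBM against FM (edgeR adjusted p = 0.519, 1 and 0.639). With library size alone it was −0.15 in D3 against FM and in SBM against FM.

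The genes slc30a5 and slc30a7 encode transporters that fill the Golgi and early secretory compartments with zinc. In vertebrate cells this zinc is needed to load zinc enzymes that pass through these compartments, such as alkaline phosphatase. For slc30a5 the D3 libraries had 31.7, 37.1 and 26.1 CPM. SBM had 26.1, 29.8 and 26.1 CPM, and FM had 34.3, 30.5 and 33.4 CPM. This was the steadiest of the 7 genes, with a highest library 1.42 times the lowest. SBM lay below FM in each library in CPM (log2 fold change −0.26 ± 0.18, edgeR adjusted p = 0.574). In FPKM they overlapped, with 11.3, 9.36 and 11.7 in SBM and 11.2, 10.4 and 10.6 in FM, and scaling by library size alone gave a log2 fold change of 0.0022. In D3 against FM and D3 against SBM the log2 fold changes were −0.05 ± 0.18 and 0.21 ± 0.18 (edgeR adjusted p = 0.898 and 1).

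For slc30a7 the D3 libraries had 43.0, 52.7 and 55.0 CPM. SBM had 58.8, 44.0 and 36.4 CPM, and FM had 44.2, 46.9 and 45.8 CPM. The highest values, 58.8 and 55.0 CPM, were those of SBM library 1 and D3 library 3, the libraries high in oocyte markers, and without both the log2 fold change in SBM against FM was −0.16 in place of 0.02 ± 0.21. In D3 against FM it was 0.14 ± 0.21 and in D3 against SBM 0.12 ± 0.21, and no comparison was called (edgeR adjusted p = 0.733 in D3 against FM, 1 for D3 against SBM and 0.965 in SBM against FM). The value in D3 against FM depended on the scaling, with 0.41 by library size alone and 0.38 by limma on log2(FPKM + 1). In FPKM each D3 library, at 22.6, 27.8 and 32.8, lay above each FM library, at 20.0, 22.2 and 20.3. The part of the oocyte RNA in these values was not tested.

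**Figure D4:**
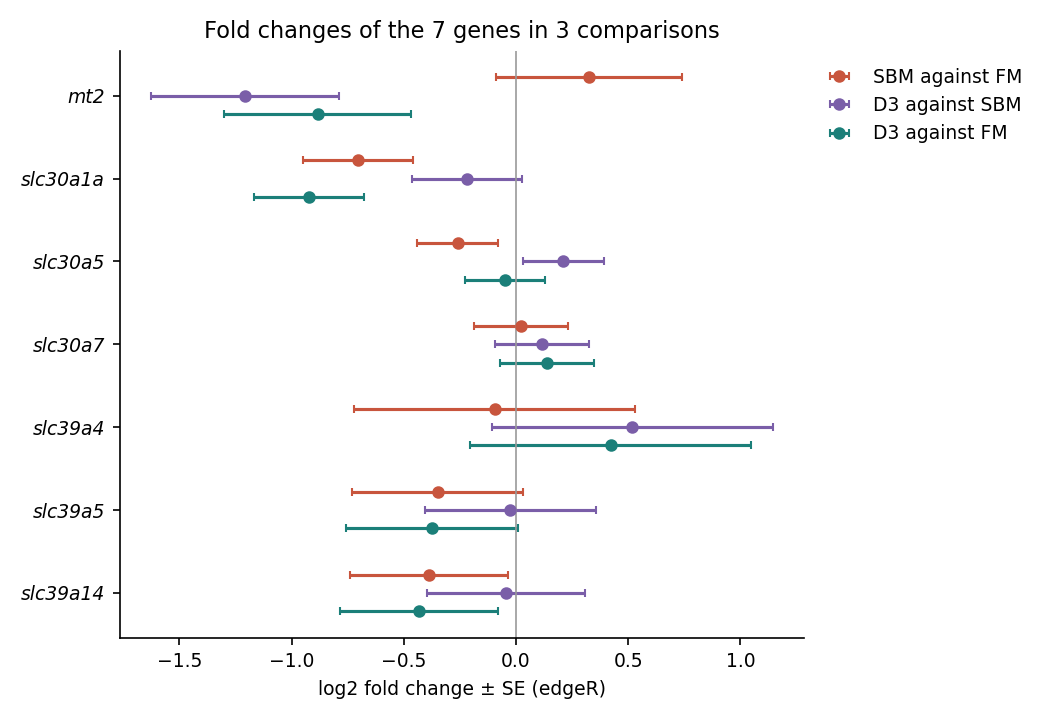
Log2 fold change ± SE (edgeR) of each of the 7 genes in SBM against FM, D3 against SBM and D3 against FM, with a vertical line at 0. The points farthest from 0 are those of mt2 in D3 against SBM (−1.21 ± 0.42) and slc30a1a in D3 against FM (−0.92 ± 0.25), and slc39a4 has the widest error bars.

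Levels of different genes were compared per gene length, in the FPKM that the authors deposited. The mt2 transcript averaged 427 ± 277 FPKM in D3, 968 ± 247 in SBM and 632 ± 225 in FM (SD, n = 3 each), and its lowest library in each group stood far above the next member. Below it the order of the members in D3 was slc30a7 (27.7 FPKM), slc39a4 (21.1), slc39a5 (20.0), slc30a1a (14.4) and slc30a5 (12.4), and each overlapped its neighbour. In SBM it was slc30a7 (25.6 FPKM), slc39a5 (20.8), slc30a1a (16.6), slc39a4 (13.7) and slc30a5 (10.8), again with overlap between all neighbours. In FM it was slc30a1a (23.0 FPKM), slc39a5 (21.9), slc30a7 (20.8), slc39a4 (13.3) and slc30a5 (10.8), and only slc30a7 and slc39a4 did not overlap. The exporter slc30a1a was thus the second member in FM, the fourth in SBM and the fifth in D3, within orders that the spread between libraries does not fix. Last in each group was slc39a14, at 0.586, 0.586 and 0.652 FPKM in D3, SBM and FM, with no library reaching those of slc30a5.

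**Figure D5:**
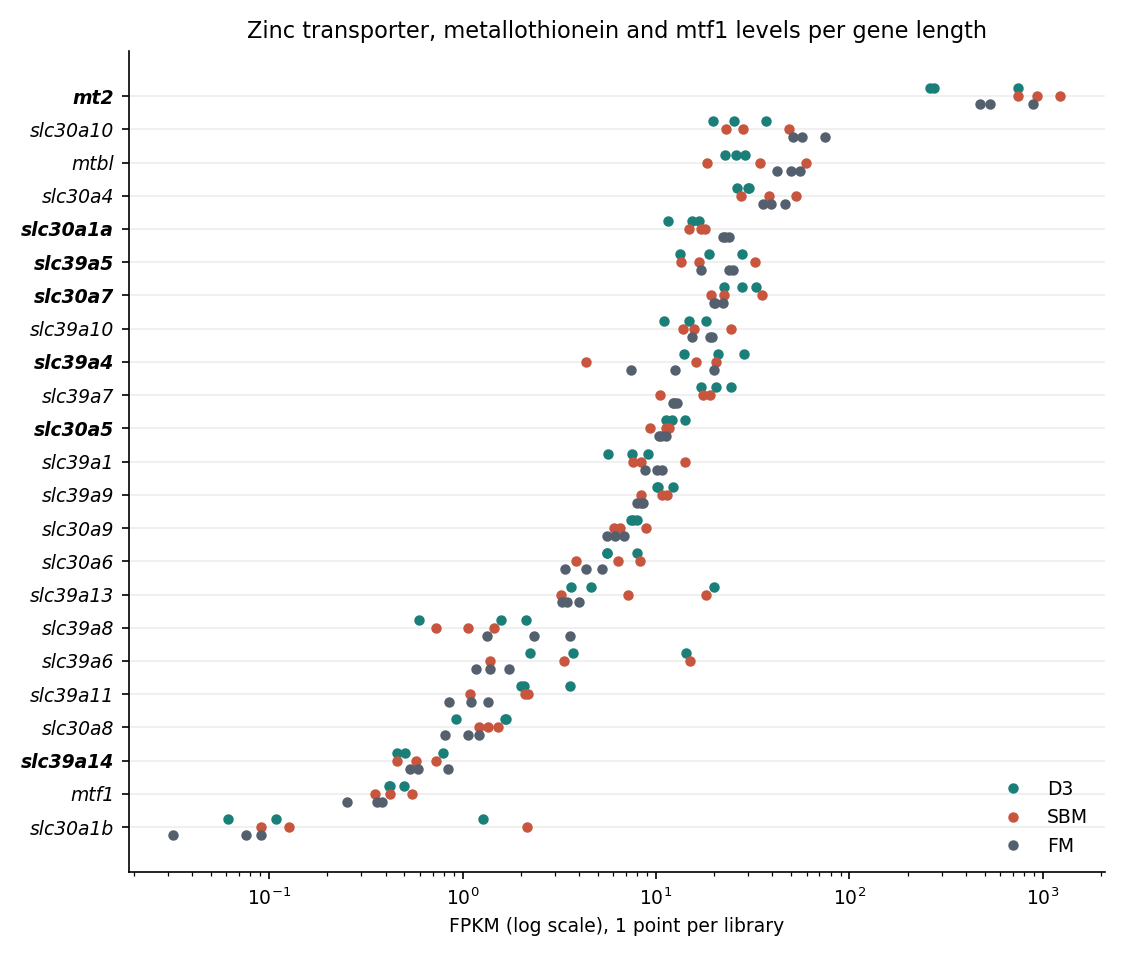
FPKM of the 7 members (bold names), the other slc30a and slc39a genes, mtbl and mtf1, 1 point per library, with D3 above SBM above FM in each row (log axis), ordered by the FM mean. The points of mt2 lie apart from all others. For slc30a10, slc30a4, slc30a1a and mtbl all D3 points lie to the left of all FM points. For slc30a7, slc30a6, slc30a9, slc39a6, slc39a7, slc39a9, slc39a11 and mtf1 they lie to the right. FPKM divides by the plain library total, and with that scaling the median log2 fold change of all genes was 0.30 in D3 against FM. In CPM all of those to the left stayed lower, but of those to the right only slc39a6 and slc39a11 stayed higher. On that scale 13.6% of all genes were lower in D3 without overlap and 12.8% higher.

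The 3 highest of the other slc30a and slc39a genes were slc30a4, slc30a10 and slc39a7 in D3, with 28.8, 27.3 and 20.7 FPKM. In SBM they were slc30a4, slc30a10 and slc39a10, with 39.7, 33.3 and 18.0 FPKM, and in FM slc30a10, slc30a4 and slc39a10, with 60.9, 40.4 and 18.0 FPKM. The gene slc30a10, whose mammalian product exports manganese, had 82.9, 43.8 and 49.9 CPM in D3, 55.4, 131 and 43.7 in SBM and 133, 185 and 152 in FM. Its log2 fold change was −1.41 ± 0.44 in D3 against FM and −1.03 ± 0.44 in SBM against FM (edgeR unadjusted p = 0.0114 and 0.0444, adjusted p = 0.320 and 0.541), and neither group overlapped FM, by 131 in SBM against 133 in FM at the nearest pair. The vesicular transporter gene slc30a4 had 83.7, 96.6 and 83.7 CPM in D3, 77.3, 148 and 143 in SBM and 132, 140 and 175 in FM (−0.76 ± 0.27 in D3 against FM, edgeR adjusted p = 0.320). Of the 5 other slc30a genes tested, 2 had an unadjusted p under 0.05 and a lower value in D3 than in FM (7.14% of all genes), and 0 a higher one (8.05%). Of the 8 other slc39a genes, 1 did in each direction. The plasma membrane importer gene slc39a1 had a mean of 13.0 ± 2.37 CPM in D3 and 21.0 ± 2.77 in FM, and slc39a11 had 1.55 ± 0.421 in D3 and 0.813 ± 0.160 in FM (SD, n = 3 each). In SBM against FM, 1 other slc30a gene, slc30a10, and 1 other slc39a gene, slc39a8, had an unadjusted p under 0.05, both with lower values (3.41% of all genes). The importer gene slc39a8 had a mean of 2.24 ± 0.430 CPM in SBM and 6.18 ± 3.06 in FM. Between D3 and SBM none of these 13 genes had one, and edgeR and DESeq2 called 0 of them in any comparison.

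Zinc enzymes, most of them of the enterocyte brush border, had mostly lower values in D3 and SBM than in FM. Of 14 such genes tested, 12 had a negative log2 fold change in D3 against FM and 13 in SBM against FM. Their medians were −0.75 and −0.64, beside 0.04 and −0.01 over all tested genes. The edgeR test called 0 of them. In D3 against FM DESeq2 called 909 of 19450 genes in either direction, and 4 of these 14. All 4 were lower (anpepa, anpepb, mep1a.1 and mep1a.2). In SBM against FM it called 113 genes and 0 of these 14. With an unadjusted p under 0.05 there were 6 lower (7.14% of all genes) and 0 higher (8.05%) in D3 against FM, and 4 lower (3.41%) and 0 higher (5.53%) in SBM against FM. The summed level of enterocyte markers moved with these genes, at 9087 to 17033 CPM in D3 and 9396 to 20406 in SBM. In FM it was 22037 to 28681 CPM. Single markers such as mtp did not all do so, and their part in the counts was not tested. The 6 zinc enzyme genes lower in D3 against FM were anpepa, anpepb, mep1a.1, mep1a.2, dpep1 and ace. These encode aminopeptidases, meprin subunits, a dipeptidase and angiotensin-converting enzyme. The 4 lower in SBM against FM were anpepb, mep1a.1, mep1a.2 and ca2, a carbonic anhydrase gene whose mammalian product is cytosolic. The meprin gene mep1a.1 averaged 455 ± 109 CPM in D3, 670 ± 261 in SBM and 1250 ± 174 in FM (SD, n = 3 each), with a log2 fold change of −1.46 ± 0.32 in D3 against FM (edgeR adjusted p = 0.320). The gene anpepb is also one of the 12 enterocyte markers. Between D3 and SBM the median of the 14 was −0.21, with 0 at an unadjusted p under 0.05.

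Copper genes were the other metal group examined. Of 11 tested, 3 had an unadjusted p under 0.05 and a lower value in D3 than in FM, where 7.14% of all genes did: the copper chaperone gene atox1 (−0.95 ± 0.33), the copper pump gene atp7b (−1.04 ± 0.34) and slc31a2 (−0.83 ± 0.30), with an edgeR adjusted p of 0.320 each. With a higher value there was 1 of the 11, where 8.05% of all genes had one. This was cp, the gene of the liver-secreted ceruloplasmin, which is also one of the hepatocyte markers. Its log2 fold change was 4.43 ± 1.82 (edgeR adjusted p = 0.327), and DESeq2 called it. It had 304, 1312 and 30.1 CPM in D3 and 30.4, 40.1 and 5.76 in FM, and was high in the libraries high in the other hepatocyte markers. The other 2 comparisons had 0 of the 11 at an unadjusted p under 0.05.

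Genes with the pattern over the 9 libraries most like that of a member were found by the Pearson correlation of log2 CPM, among all genes tested. Each was picked as the highest of 19449, and libraries share their group and tissue makeup, so that the values only describe likeness. For slc30a1a the 3 nearest were mapre3b (r = 0.992), rgcc (0.988) and the brush border aminopeptidase gene anpepb (0.988), with Spearman's rho of 0.967, 0.917 and 0.933. The level of anpepb was 3100, 3255 and 1623 CPM in D3, 2727, 4252 and 3285 in SBM and 5654, 6805 and 6405 in FM. For slc30a5 they were fkbp11, tmed10 and tmem258 (r = 0.986, 0.956 and 0.947), which encode proteins of the endoplasmic reticulum and of transport between it and the Golgi. For mt2 they were rps6ka3b, dennd1a and tmtc4 (r = 0.941, 0.910 and 0.905). For slc39a4 they were diablob, zgc:165555 and zgc:162183 (r = 0.959, 0.952 and 0.942), and for slc39a5 tmem30aa, fam212b and wu:fe17e08 (r = 0.963, 0.962 and 0.960). For slc30a7 they were zgc:171604, srprb and extl3 (r = 0.941, 0.932 and 0.931), of which srprb encodes a subunit of the signal recognition particle receptor. For slc39a14 they were ndst1a, hspa12a and arl9 (r = 0.970, 0.942 and 0.933), with ndst1a and hspa12a at counts as low as those of slc39a14 or lower. None of the 21 nearest genes of the 7 members was itself a member.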

How the data were processed

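RNA of 9 zebrafish intestine libraries was sequenced. Per the labels' protocols, RNA was extracted with a Qiagen kit and made into libraries with a SMARTer mRNA kit. The deposited count table holds whole-number raw counts per gene. The authors also deposited FPKM, which to within 0.000122% equals the count over a fixed gene length and the library total. No aligner, counter, strand setting, build or annotation is stated in the sources used here, so that reads of overlapping or antisense genes cannot be told apart, and reads of near-identical copies may be split, and no coordinates are given. Columns were matched to libraries by title.

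Counts were fitted in R 4.3.3 with edgeR 4.0.16: filterByExpr with a minimum count of 10 kept 19450 genes and removed 7533, TMM factors ran from 0.846 to 1.20, and all 9 libraries entered 1 quasi-likelihood fit with 6 residual degrees of freedom. Tests were two-sided, and p-values were adjusted by Benjamini-Hochberg over all tested genes. The SE is the fold change divided by the square root of F. DESeq2 1.42.0, limma 3.58.1 and other scalings, filters and left-out libraries were alternatives. The code was tested on simulated data. The members and lists were chosen with earlier results of these data known. The genes named beside the members are those with an unadjusted p under 0.05 in any comparison. Those 3 highest in FPKM and 3 nearest in pattern are named too. Beyond these rules, mtf1, slc39a6, slc39a13, slc30a6 and slc30a1b were added after their values were seen. Log2 CPM used a prior count of 2. The count ratios and the scaling to enterocyte markers were added after the data were seen.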

Additional observations from a re-analysis of the deposited data

How the results depend on the processing

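Beside DESeq2, the fit without SBM library 2 and D3 libraries 1 and 2 was the only one of the 20 alternatives to call any gene. There, with 1 D3 library assumed to vary like the other groups, 2053 genes were called in D3 against FM, and 1 member, slc30a1a (−1.46). DESeq2 called 909 genes in D3 against FM, 113 in SBM against FM and 5 in D3 against SBM, and 1 member, slc30a1a in D3 against FM. Scaling by library size alone put the median of all genes at 0.30 in D3 against FM, 0.26 in SBM against FM and 0.03 in D3 against SBM, and left slc30a1a at −0.67 and −0.47 against FM.

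Over 20 alternatives the 21 fold changes gave 420 values, of which 394 kept direction and side of the threshold, 2 were newly called and 24 turned round. All values of slc30a1a and mt2 kept their direction. Library size alone turned slc30a5 to 0.0022 and slc39a4 to 0.041 in SBM against FM, and slc30a5 to 0.21 in D3 against FM. For slc30a5 in D3 against FM, limma on log2(FPKM + 1) gave 0.19, on log2(FPKM + 0.1) 0.20, and the fit without SBM library 1 and D3 library 3 gave 0.067. For slc30a7 in SBM against FM, no filter gave −0.0004, limma-voom −0.0049 and the fit without those 2 libraries −0.16. Without SBM library 2 and D3 libraries 1 and 2, slc30a5 in D3 against SBM was −0.061 and slc39a14 was 0.40. With single libraries left out, the log2 fold change in SBM against FM ran from −0.20 to 0.16 for slc30a7 and from −0.78 to 0.34 for slc39a4. In D3 against SBM it ran from −0.26 to 0.11 for slc39a14, from −0.034 to 0.33 for slc30a7 and from −0.38 to 0.29 for slc39a5, and in D3 against FM from −0.20 to 0.053 for slc30a5. The cause was not tested.

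The replicate numbers in the titles showed no pairing that held across all genes and groups. Deviations from the group means of same-numbered libraries correlated at 0.07, 0.18 and 0.29 between SBM and FM. Between D3 and SBM they correlated at −0.58, 0.52 and −0.03, and between D3 and FM at −0.07, 0.02 and −0.07. Not every pair was over 0.1, and not every library correlated best with its own number. With the number as a replicate block, 0 genes and 0 members were called. For mt2, though, library 3 had the highest value of each group. With that block its log2 fold change was −1.35 ± 0.28 in D3 against SBM (edgeR unadjusted p = 0.00216). In D3 against FM it was −0.94 ± 0.27 (edgeR unadjusted p = 0.0118), and in SBM against FM 0.41 ± 0.27. Whether the numbers mark paired samples cannot be told from these values. Counting error is widest for slc39a14, at 40 to 76 counts, and slc30a1b had too few counts to be tested.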

Other observations

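Among the other zinc transporter genes, slc39a6, slc39a13, slc30a6 and slc30a1b had their highest values in the libraries high in oocyte markers. They were picked for this after their values were seen. The ZIP gene slc39a6 had 5.98, 9.92 and 33.7 CPM in D3, 35.2, 4.47 and 7.59 in SBM and 5.41, 3.50 and 4.40 in FM, so that each D3 library also lay above each FM library (log2 fold change 1.90 ± 0.86, edgeR adjusted p = 0.337). The Golgi ZIP gene slc39a13 had 5.70, 7.15 and 27.6 CPM in D3, 24.8, 6.11 and 9.50 in SBM and 5.90, 6.04 and 7.44 in FM. The difference was small in slc30a6, with 8.09, 8.08 and 10.2 CPM in D3 and 10.5, 6.69 and 7.78 in SBM. Its FM libraries had 5.70, 7.01 and 9.00 CPM. The second copy of the exporter, slc30a1b, was too low to be tested. It had 7, 4 and 84 counts in D3, 140, 6 and 8 in SBM and 2, 6 and 5 in FM. In each of these genes the highest values were those of D3 library 3 and SBM library 1. There the egg coat gene zp3 stood at 448 and 570 CPM, against 7.54 to 69.4 CPM in the other 7 libraries. In slc30a1a, the other copy of the exporter, these 2 libraries were the lowest of the 9, at 30.5 and 38.9 CPM.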
